A study of Mus musculus with 3 samples.

Results

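The cilia and flagella associated (Cfap) genes were taken as every gene whose symbol in the deposited gene list begins with Cfap and a number, which gave 26 of 31054 features. Their transcripts were measured by single-cell RNA sequencing in 3 wild-type (WT) mouse embryos of the strain C57BL/6 x 129 SvEv, harvested at embryonic day 8. The protocol gives 0 to 1 somite, a stage field allows up to 2, and extraembryonic tissue was removed. Each embryo was dissociated alone and gave 1 library, so replicates 1, 2 and 3 are separate animals, and no other genotype or treatment was used here. After quality control 5795, 7956 and 7844 cells remained (21595 in all), with 191843539, 144790573 and 165506028 UMIs per embryo and a median of 27635, 14615 and 16332.5 UMIs per cell. A UMI (unique molecular identifier) counts each captured transcript once.

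The axoneme, the microtubule core of motile cilia and flagella, is built from doublet microtubules, and motile cilia add dynein arms, radial spokes and, in many cell types, a central pair. Cfap proteins are a set named for their presence in these structures and not a family by sequence: some line the inside of the doublets, others tether dyneins, form spokes or belong to the central apparatus. In the left-right organizer (LRO), also called the node, monociliated pit cells with motile cilia drive a leftward flow, while crown cells at its edge express Nodal and Dand5. Cilia of the pit lack a central pair, as textbooks describe it.

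LRO cells were the cells with a UMI of at least 4 of 6 genes (Foxj1, Noto, Pifo, Fam183b, 1110017D15Rik and Meig1). None of the 6 has a Cfap symbol in the deposited gene list, and some were named by the study from these same embryos. The paper describes Foxj1 as a regulator of motile cilia, so the choice of cells was not independent of ciliary genes. There were 71, 66 and 94 such cells, 231 in all or 1.07% of cells. Of these, 100% had a UMI of T, 80.5% of Foxa2 and 78.8% of Shh, which mark axial mesoderm and were not used to choose them. Their median depth was 26353 UMIs, against 18443.5 in all other cells. The other cells were given to 14 lineages by marker genes, each called by its name with "like", or left unassigned (5542 cells). Erythroid-like cells numbered 2, 893 and 341, so their levels do not cover replicate 1. Among the 231 LRO cells, summed markers of extraembryonic endoderm had 116 to 404 counts per 1000000 UMIs (CPM) in an embryo against 13650 to 15731 in the extraembryonic-endoderm-like cells, and erythroid markers 4.19 to 47.7 against 4202 to 11312. Other lists were higher there. Caudal epiblast markers, which include T, had 796 to 1077 CPM in LRO cells against 1069 to 1216 in their own cells. Presomitic mesoderm markers had 269 to 446 CPM against 154 to 239 in all other cells, and definitive endoderm markers, which include Foxa2, 245 to 416 against 145 to 201. The part of such RNA in the results was not tested. The libraries shared 22, 18 and 19 barcodes in pairs. Levels are UMIs of a gene in CPM of the class, and the 3′ assay counts transcripts and is not divided by gene length.

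By level, the genes fell into 4 groups, with limits set after the values were seen. The 4 sparse genes (Cfap58, Cfap73, Cfap99 and Cfap221) had under 50 UMIs in all cells, from 12 to 32. A broad gene had, in some lineage outside the LRO, at least 25% of its LRO level, which held for Cfap20, Cfap36 and Cfap97. An intermediate gene did not, but had under 25% of its UMIs in LRO cells, which held for Cfap43, Cfap57 and Cfap74. The other 16 are called restricted. The name does not mean that most UMIs of each lay in LRO cells. The mean share there was 33.0% for Cfap61, 43.9% for Cfap100 and 47.4% for Cfap70. Cfap57 lay just inside the limit, with 24.8% of its LRO level in presomitic-mesoderm-like cells, and Cfap99, at 36.7%, was kept apart because it rested on 24 UMIs.

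Promoters were shown for genes whose start region holds words that ciliary transcription factors are known to read. RefSeq (GRCm38.p6) gave a promoter, from 250 bases before to 50 after the start, for 20 of the 26 genes. The word GTTGCC, one arm of the X-box that RFX factors read, was found on either strand in 7 of the 20 (35.0%) and in 14.1% of 27025 genes with a promoter. The whole X-box was searched in a strict form only: GTTNCC, a gap of 1, 2 or 3 bases and its reverse complement GGNAAC. Looser arms, such as gttgct before GGCAAC in the Cfap44 promoter below, were not searched. A count of 0 therefore does not mean that a promoter lacks an X-box. The strict form was found in 0 of the 20 at each of the 3 gaps. Over all genes it was found in 0.311%, 0.529% and 0.0703% at a gap of 1, 2 and 3 (0.903% at any gap). The forkhead word TGTTTAC was found in 2 of the 20 (10.0%, Cfap20 and Cfap43), in 0 of the 12 restricted genes with a promoter and in 4.05% of all genes. The shorter word can lie within the longer ones. Among the 3 promoters printed, that of Cfap161 held the short word most often, at 3 places, Cfap44 is a restricted gene with 2, and Cfap20 is a broad gene with 1 and a forkhead word. Capitals mark GTTGCC and TGTTTAC or their reverse complements. They lie on chr7:83794790-83795089 (minus strand), chr16:44394549-44394848 (plus strand) and chr8:95434820-95435119 (minus strand).
Cfap161: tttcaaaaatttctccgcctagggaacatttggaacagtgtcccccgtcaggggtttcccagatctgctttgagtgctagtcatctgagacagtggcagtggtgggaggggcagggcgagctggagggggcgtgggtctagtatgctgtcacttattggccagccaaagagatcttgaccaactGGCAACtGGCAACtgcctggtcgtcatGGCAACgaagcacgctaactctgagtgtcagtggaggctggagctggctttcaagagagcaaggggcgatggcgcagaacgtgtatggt
Cfap44: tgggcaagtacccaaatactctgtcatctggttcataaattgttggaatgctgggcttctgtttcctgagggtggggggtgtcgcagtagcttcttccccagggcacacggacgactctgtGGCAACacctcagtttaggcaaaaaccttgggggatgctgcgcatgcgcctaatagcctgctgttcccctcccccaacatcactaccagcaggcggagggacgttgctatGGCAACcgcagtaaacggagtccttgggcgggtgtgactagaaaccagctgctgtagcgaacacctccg
Cfap20: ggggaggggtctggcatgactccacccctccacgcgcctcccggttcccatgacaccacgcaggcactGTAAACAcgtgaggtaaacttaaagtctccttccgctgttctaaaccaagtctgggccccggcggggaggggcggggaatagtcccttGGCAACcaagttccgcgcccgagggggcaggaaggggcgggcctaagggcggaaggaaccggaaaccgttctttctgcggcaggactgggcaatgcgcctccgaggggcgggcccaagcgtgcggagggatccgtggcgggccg
A match describes these letters only and was not tested as a binding site.

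The highest mean levels in LRO cells among the 26 genes were those of Cfap126 (205 CPM) and Cfap45 (150 CPM). Cfap126 (Flattop, ENSMUSG00000026649, chromosome 1 from 171113918 to 171126967 of GRCm38), a protein of the doublet interior, had 249, 236 and 131 CPM in LRO cells of replicates 1, 2 and 3 and 1.54, 1.04 and 1.42 CPM in all other cells. It was detected in 95.8%, 100% and 95.7% of LRO cells. Cfap45 (ENSMUSG00000026546, chromosome 1 from 172520801 to 172545870), another inner doublet protein, had 175, 175 and 100 CPM against 0.491, 0.544 and 0.505. For both, every embryo's LRO level lay far above every level elsewhere, a gap that the limits of the restricted group select for. Replicate 3 was the lowest.

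Cfap52, also an inner doublet protein, had 79.2, 66.5 and 36.2 CPM in LRO cells and 0.385, 0.244 and 0.240 in other cells. Cfap53, an inner doublet protein whose loss is known to disturb left-right asymmetry, had 74.5, 56.5 and 46.5 CPM against 0.375, 0.293 and 0.215. Cfap77, a doublet protein too, had 85.4, 73.3 and 29.2 CPM against 0.718, 0.579 and 0.788. LRO cells and other cells did not overlap for any of these genes, which the limits of the restricted group select for. The share of all genes without overlap was not counted. Cfap161, an inner doublet protein at a lower level, had 23.2 ± 8.30 CPM in LRO cells (SD, n = 3 embryos) and the largest mean share of its UMIs there among genes with at least 50 UMIs, 95.1% ± 0.941.

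Dynein tethers and radial spokes were represented too. Cfap44, part of a tether of an inner dynein arm, had 93.8, 73.3 and 34.2 CPM in LRO cells and 0.174, 0.174 and 0.135 in other cells. Cfap206, a radial spoke protein, had 108, 75.3 and 48.8 CPM against 0.111, 0.195 and 0.111, with 87.2% ± 6.44 of its UMIs in LRO cells. Replicate 3 was again the lowest for both. Cfap61, a spoke protein, reached 8.76 ± 3.02 CPM, and Cfap100, which belongs to a complex that regulates inner arms, 4.30 ± 1.70 CPM.

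Genes assigned to the central apparatus were also present. Cfap69 had 71.2, 66.5 and 26.9 CPM in LRO cells and 0.760, 0.593 and 0.646 in other cells. Cfap54 had 38.5 ± 15.9 CPM and Cfap46 11.0 ± 3.81 CPM in LRO cells (SD, n = 3), with at most 0.251 and 0.0686 CPM in other cells of an embryo. Cfap221, of the same projection, had 13 UMIs in LRO cells and is among the sparse genes. Other restricted genes were Cfap65 (38.3 ± 15.6 CPM), Cfap70 (13.6 ± 4.37 CPM) and Cfap157 (6.95 ± 3.42 CPM).

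**Figure D1:**
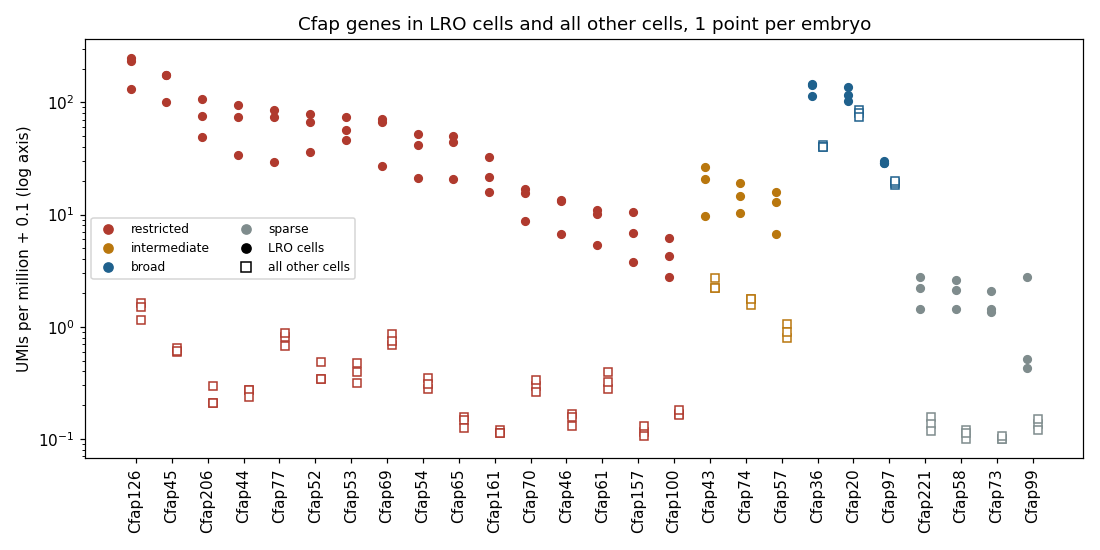
CPM plus 0.1 (log axis) for each of the 26 Cfap genes, with filled points for LRO cells and open squares for all other cells, 1 point per embryo, coloured by group. The restricted genes, a group set by these same levels, are separated in every embryo. For Cfap20 the LRO cells (102 to 137 CPM) sit close above the other cells (74.5 to 86.2 CPM).

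With the counts summed per embryo, 25 of the 26 genes entered the test of LRO cells against all other cells (edgeR's quasi-likelihood test with Benjamini-Hochberg adjustment). All 25 tested were higher at an adjusted p of 0.05 and 0 were lower, where 11.5% of the 15783 genes tested were higher and 6.68% lower. At an unadjusted p of 0.05 and with DESeq2 the count of lower genes was also 0. Of the 25, 10 passed the filter on low counts only through their level in LRO cells, which selects for a difference. The count is therefore an account of the genes and not support. Among the 15 that would pass on the other cells alone, the log2 difference was 8.08 for Cfap45 (standard error 0.228, adjusted p = 1.58e-08 by edgeR) and 7.16 for Cfap126 (0.261, adjusted p = 3.90e-08). The intermediate genes had 3.72 (Cfap57), 3.05 (Cfap74) and 2.93 (Cfap43). The broad genes had 1.64 for Cfap36 (standard error 0.104, adjusted p = 1.56e-06), 0.54 for Cfap97 (0.121, adjusted p = 0.0121) and 0.47 for Cfap20 (0.112, adjusted p = 0.0170). The last 2 calls were not firm. Cfap97 missed the threshold without replicate 1, 2 or 3 (adjusted p = 0.0523, 0.0888 and 0.101) and in thinned cells (0.135), and Cfap20 without replicate 2 or 3 (0.0964 and 0.0654). The sparse Cfap99 (log2 fold change 4.50, adjusted p = 0.0126) gave 3.01 and an adjusted p of 0.180 without replicate 2, where its level was highest (2.69 CPM).

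The levels rose with the number of LRO markers a cell had, which the choice of a minimum of 4 cuts. The markers define the LRO cells and include Foxj1, a regulator of motile cilia. The rise is therefore an account of the levels and not support. The restricted genes together had 153 CPM in the 46 cells with 3 markers and 357 CPM in the 48 cells with 4. They had 31.7 CPM with 2 markers, 526 with 5 and 1294 with all 6, while the broad genes went from 139 CPM with 0 markers to 341 with 6. The median depth was 17989, 26761, 34674, 21720.5, 30420.5, 30537 and 22958 UMIs in cells with 0 to 6 markers, lowest with 0, and the part of depth in these levels was not tested. Of all UMIs of the restricted genes, 70.0% lay in LRO cells, 4.12% in the 151 cells with 2 or 3 markers, 3.03% in cells with 1 and 22.8% in the 20005 cells with 0.

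Outside the LRO, each restricted gene was found in few cells. A UMI of at least 1 of the 16 was found in 9.37% of all other cells. By lineage this share ran from 3.24% (erythroid-like) to 28.3% (axial-mesoderm-like). In erythroid-like cells the share of cells with a UMI was 0% to 0.728% by gene, with a median depth of 15263.5 UMIs. In all other cells it was 0.0374% (Cfap161) to 2.67% (Cfap126), at a depth of 18443.5. After each cell was thinned to 5000 UMIs, Cfap126 was found in 63.6% of LRO cells, 0.734% of other cells and 0.162% of erythroid-like cells. For Cfap54 and Cfap69 the thinned share was instead higher in erythroid-like cells (0.324% and 0.405%) than in other cells (0.118% and 0.320%). Whether erythroid-like cells lack these transcripts was not tested. For 15 of the 16 genes the highest lineage was the axial-mesoderm-like one, and for Cfap157 the primordial-germ-cell-like one at 0.192 CPM. A level of 0.192 CPM rests on few UMIs and sets no order. The same holds for Cfap100 (0.421 ± 0.729 CPM), Cfap46 and Cfap161 (0.694 ± 1.20 CPM each) and Cfap65 (1.04 ± 1.80 CPM) in axial-mesoderm-like cells. There the SD exceeded the mean for each. That class was also the smallest lineage, with 145 cells. The share of all genes with their highest lineage level in it was not counted.

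The axial-mesoderm-like cells (40, 63 and 42) are the nearest lineage to the LRO, and 30 of the 145 had 2 or 3 LRO markers. There Cfap126 had 7.38, 21.9 and 21.5 CPM and Cfap45 had 0, 25 and 7.57 CPM, so that the levels differed widely between embryos but lay below those of LRO cells in each. In edgeR's test between the 2 classes, 17 of the 26 genes were tested, 15 were higher in LRO cells and 0 were lower, against 5.81% and 1.98% of 9086 genes. With DESeq2 and at an unadjusted p of 0.05, the lower count was 0 as well. Only Cfap126, Cfap20, Cfap36 and Cfap97 would pass the filter on axial-mesoderm-like cells alone. The other 13 passed only through LRO cells, which selects for a difference, so the count of 15 is not support. By marker score 149 of the 231 LRO cells were also axial-mesoderm-like, and for these the LRO markers alone set the class. The log2 difference was 3.65 for Cfap126 (standard error 0.311, adjusted p = 4.56e-06) and 0.97 for Cfap36 (0.154, adjusted p = 0.000566). Cfap20 (0.29, standard error 0.157, adjusted p = 0.360) and Cfap97 (0.31, 0.222, adjusted p = 0.540) did not pass.

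**Figure D2:**
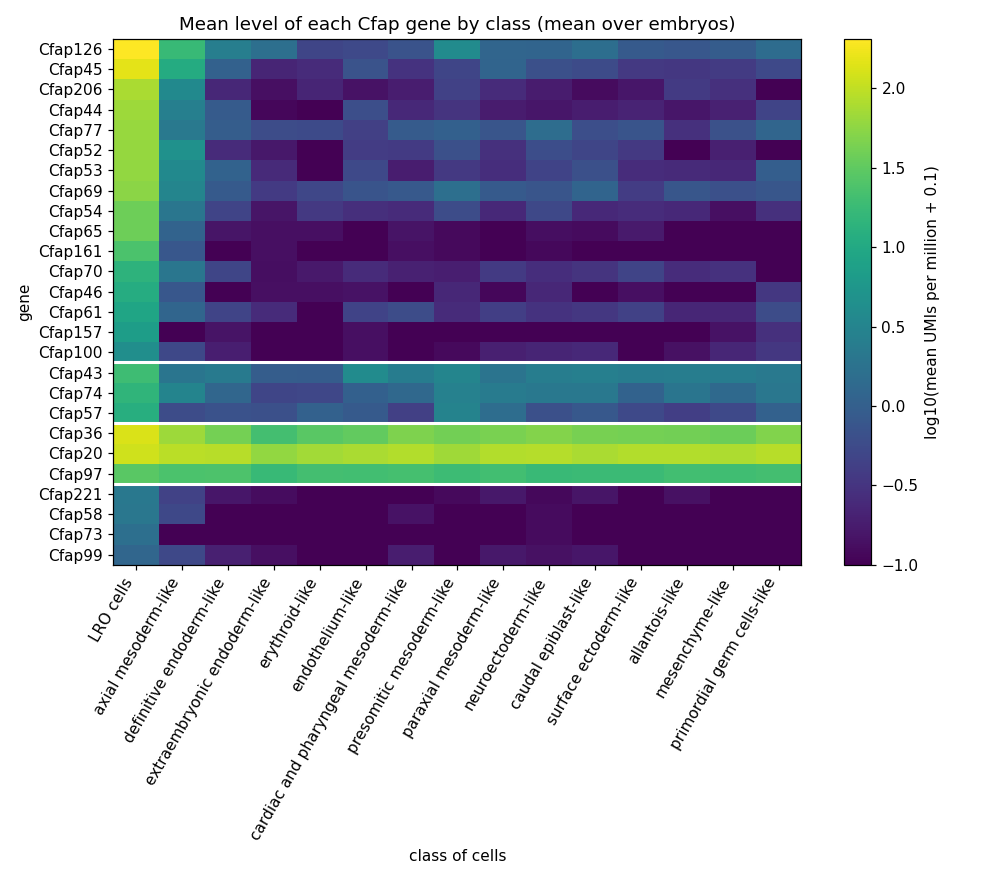
Mean level of each Cfap gene (rows, by group, with white lines between groups) in LRO cells and 14 lineages (columns), as log10 of mean CPM plus 0.1 over embryos. Most restricted genes are bright in LRO cells with a faint signal in the axial-mesoderm-like column. Cfap157 had 0 CPM in that column, and Cfap100 had only 4.30 CPM in LRO cells. Cfap20, Cfap36 and Cfap97 are bright across all columns.

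Cfap20, Cfap36 and Cfap97 were found in every lineage. Cfap20 (ENSMUSG00000031796, chromosome 8 from 95420249 to 95434869), which joins the tubules of the doublet, had 137, 116 and 102 CPM in LRO cells, with 97.2%, 89.4% and 91.5% of cells. The next lineages were axial-mesoderm-like (106, 101 and 71.9 CPM) and definitive-endoderm-like (98.2, 99.2 and 77.7 CPM), whose ranges overlap that of LRO cells or of each other. The lowest was extraembryonic-endoderm-like at 59.6 ± 7.90 CPM. Only 1.97% ± 0.506 of its UMIs lay in LRO cells.

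Cfap36 (ENSMUSG00000020462, chromosome 11 from 29221532 to 29247409), which resembles binding partners of Arl-family GTPases, had 146, 143 and 114 CPM in LRO cells. Axial-mesoderm-like cells had 62.0, 60.4 and 79.5 CPM, neuroectoderm-like cells 48.9, 53.4 and 46.5, and extraembryonic-endoderm-like cells 20.9, 20.9 and 21.1. Unlike Cfap20, its LRO levels overlapped no lineage, though the share of all genes of which this holds was not counted. Cfap97 (ENSMUSG00000031631, chromosome 8 from 46151771 to 46195590) had 30.2, 28.9 and 28.9 CPM in LRO cells and 21.2, 26.9 and 24.7 in definitive-endoderm-like cells. Its lineage means ran from 17.1 to 24.3 CPM, and most neighbours in that order lay within their spread. Snx25 overlaps the bounds of Cfap97 on the opposite strand, and Gm15634 and Gm45693 do so on the same strand.

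The intermediate genes, chosen for description after their values were seen, were high in LRO cells but had most UMIs elsewhere. Cfap43, a partner of Cfap44 in the dynein tether, had 26.4, 20.8 and 9.62 CPM in LRO cells and 3.09, 4.64 and 4.02 in endothelium-like cells, with 9.44% ± 1.77 of its UMIs in LRO cells. Its bounds overlap those of Itprip on the same strand and Gsto1 and Gsto2 on the other, so its counts are uncertain. Cfap57, which regulates inner dynein arms, had 15.9, 12.8 and 6.64 CPM in LRO cells and 1.71, 2.65 and 4.38 in presomitic-mesoderm-like cells. Cfap74, of the central apparatus, had 14.7, 18.8 and 10.3 CPM in LRO cells and 2.95, 1.04 and 5.05 in axial-mesoderm-like cells, its highest lineage by mean (20.7% of the LRO level), beside 2.05, 3.06 and 3.24 in presomitic-mesoderm-like cells.

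Across the lineages without LRO cells, 15 of 17 Cfap genes tested differed by edgeR's F test, against 92.7% of 14243 genes, a share near that of all genes. Each lineage was then set against the mean of the others. In presomitic-mesoderm-like cells, where 15.1% of genes were higher, the log2 difference of Cfap57 was 2.13 (standard error 0.333, adjusted p = 3.86e-06 by edgeR). In paraxial-mesoderm-like cells (14.9% of genes higher) Cfap57 had 1.19 (standard error 0.323, adjusted p = 0.00461). Cfap43 was higher in endothelium-like cells by 1.00 (0.228, adjusted p = 0.000477), where 23.7% of genes were. Cfap36 was higher in axial-mesoderm-like cells by 0.68 (0.0999, adjusted p = 2.39e-06; 10.9% of genes) and in neuroectoderm-like cells by 0.32 (0.0668, adjusted p = 0.000187; 20.7% of genes). In extraembryonic-endoderm-like cells, where 36.0% of genes were lower, the log2 fold change was -0.82 for Cfap36, -0.29 for Cfap20, -1.72 for Cfap74 and -1.15 for Cfap43, each past the threshold. All 9 of these calls passed with each embryo left out. Of the 12 other calls on intermediate and broad genes, Cfap36 in endothelium-like cells (-0.32, where 19.3% of genes were lower) did so too. In cells thinned to 5000 UMIs, however, that call missed the threshold (adjusted p = 0.0733 by edgeR). The other 11 each missed the threshold with at least 1 embryo left out. These were Cfap74 in presomitic-mesoderm-like (0.99), paraxial-mesoderm-like (0.74) and neuroectoderm-like cells (0.62) and in erythroid-like cells (-1.42, where 33.2% of genes were lower), and Cfap43 in presomitic-mesoderm-like (0.62) and erythroid-like cells (-0.93). They also included Cfap97 in definitive-endoderm-like (0.23, 28.2% of genes higher), erythroid-like (0.34, 30.2% higher) and neuroectoderm-like cells (-0.22, 18.7% lower), Cfap20 in presomitic-mesoderm-like cells (-0.26, 13.2% lower) and Cfap36 in cardiac-and-pharyngeal-mesoderm-like cells (0.22, 13.7% higher).

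Of the 16 restricted genes, 11 entered these lineage contrasts. They gave 19 higher calls, 9 of them in axial-mesoderm-like cells, and 9 lower ones over 154 contrasts, where 19.1% of all contrasts of all genes were higher and 16.4% lower. The levels behind the higher calls were 0.498 to 16.9 CPM and behind the lower ones 0 to 0.443 CPM, so they rest on few UMIs, and where a lineage is at 0 the size depends on the prior count. With each embryo left out, 6 of the 28 calls passed throughout. In axial-mesoderm-like cells these were Cfap126 (3.82), Cfap45 (4.66) and Cfap52 (4.90). The median axial-mesoderm-like cell had a UMI of 0 of the 16 restricted genes, while 7 of the 145 cells had 5 or more, at most 11. Elsewhere the calls that passed throughout were Cfap126 in presomitic-mesoderm-like cells (log2 difference 1.68, adjusted p = 6.05e-05 by edgeR), Cfap77 in neuroectoderm-like cells (1.19, adjusted p = 0.000264) and Cfap44 in definitive-endoderm-like cells (2.57, adjusted p = 0.000132). Cfap53 in definitive-endoderm-like cells (1.90, adjusted p = 0.000220) missed the threshold with at least 1 embryo left out.

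**Figure D3:**
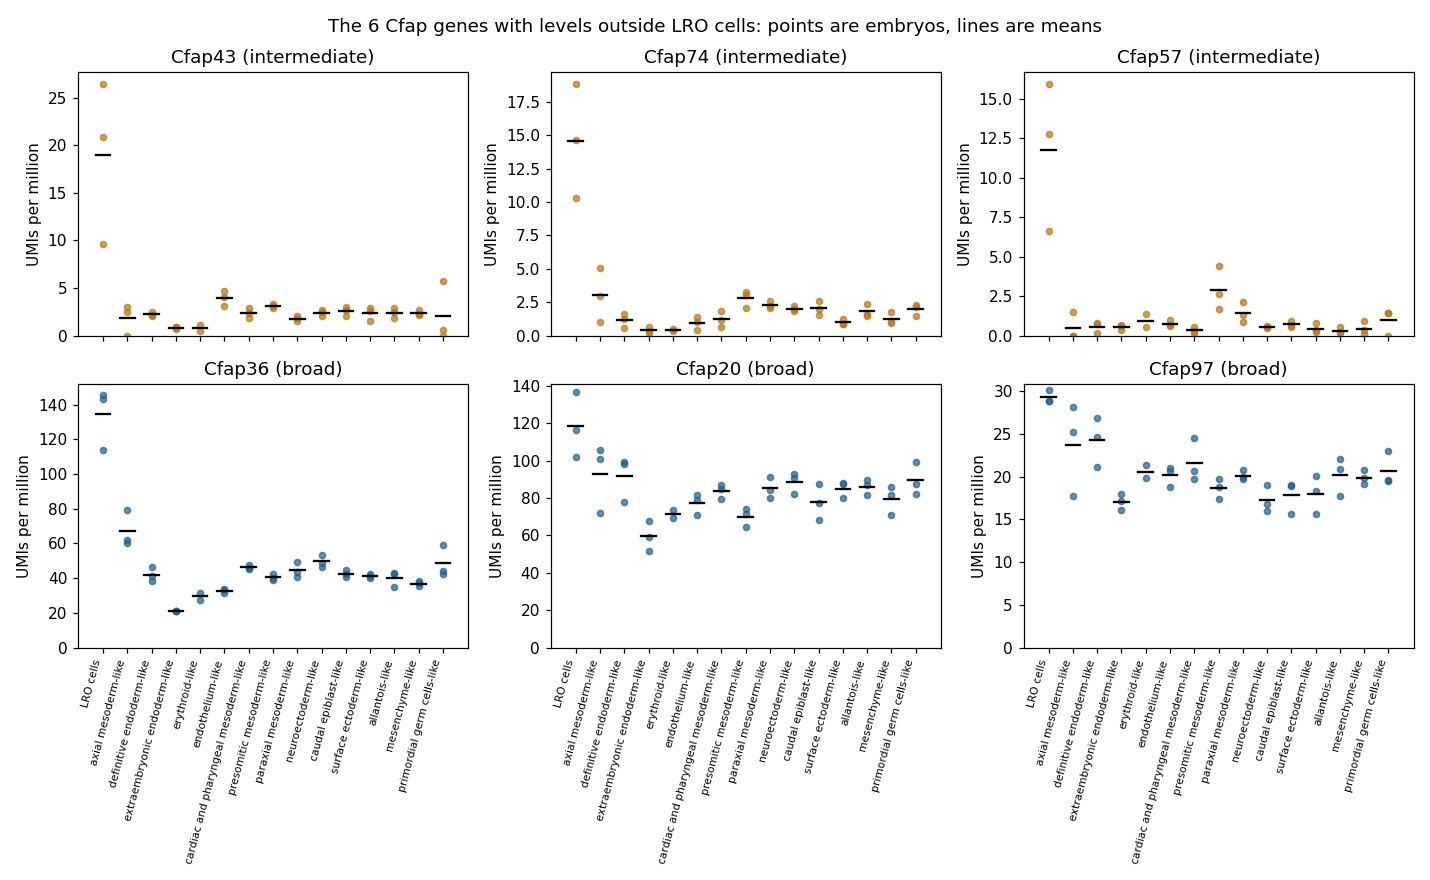
CPM of the 3 intermediate and 3 broad Cfap genes in LRO cells and 14 lineages, with 1 point per embryo and a line at the mean (each panel has its own axis from 0). Cfap36 stands apart in LRO cells at 114 to 146 CPM, Cfap20 and Cfap97 differ little between lineages, and Cfap57 is raised in presomitic-mesoderm-like cells.

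Crown cells were approximated by a UMI of Dand5 or Nodal, which 136 LRO cells had (55, 34 and 47) and 95 lacked (16, 32 and 47). The classes differed in depth, with a median of 30339 UMIs with and 22958 without, and the part of depth in the result was not tested. Cfap45 had 164, 135 and 94.6 CPM with Dand5 or Nodal and 213, 243 and 107 without, lower with it in 3 of 3 embryos, and the ranges overlapped. Cfap126 had 257, 198 and 128 CPM with and 222, 302 and 133 without, with no single direction. Of the 21 genes tested by edgeR, 0 were higher and 0 were lower (0.125% and 0.0% of 8792 genes, the first with Dand5 and Nodal in it by construction), 0 had an unadjusted p under 0.05 without pairing by embryo, and DESeq2 called 0. Log2 fold changes ran from -0.87 (Cfap57, standard error 0.462) to 0.19 (Cfap97, standard error 0.225). Cfap45, Cfap57, Cfap65, Cfap157 and Cfap161 were lower with Dand5 or Nodal in 3 of 3 embryos, 5 of the 21, and 1, Cfap97, was higher in 3 of 3. With the embryo as a block, which pairs the classes of an animal, 8 of the 21 had an unadjusted p under 0.05 and 1 passed by edgeR, Cfap45 at -0.50 with an adjusted p of 0.0179. In that fit 0.409% of genes were higher and 0.557% lower at the adjusted threshold. The share of all genes with an unadjusted p under 0.05 in it was not counted. Nor was the share of all genes with the same direction in 3 of 3 embryos. The counts of 8, 5 and 1 of the 21 therefore have no background beside them.

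LRO cells were also divided at their embryo's median depth. In the less deep cells the restricted genes together had 43.2, 24.3 and 19.6 UMIs per cell, and in the deeper cells 32.0, 20.5 and 14.9, so cells with fewer UMIs in all had more of these in 3 of 3 embryos. The ratio was 1.29 ± 0.0872 (SD, n = 3). For the broad genes it was 0.559 ± 0.0236, with 7.29, 4.70 and 5.77 UMIs per cell against 13.7, 8.30 and 9.96. Without cells in the top 6% of doublet scores the ratios were 1.25 ± 0.0946 and 0.570 ± 0.0400. In CPM, which divides by depth, both groups were higher in the less deep cells in 3 of 3 embryos. The CPM ratio was 4.39 ± 0.414 for the restricted genes and 1.92 ± 0.290 for the broad genes. Median depth was 13913, 7960 and 15089 UMIs in the less deep cells and 47432, 35662 and 44596 in the deeper cells. LRO cells were chosen by detection of at least 4 of 6 markers, and detection depends on depth. The median depth was 22958 UMIs in cells with 6 markers and 30420.5 in cells with 4. The part of that choice in these ratios was not tested. This division was chosen with a similar split of the LRO cells known, and is given without a test.

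**Figure D4:**
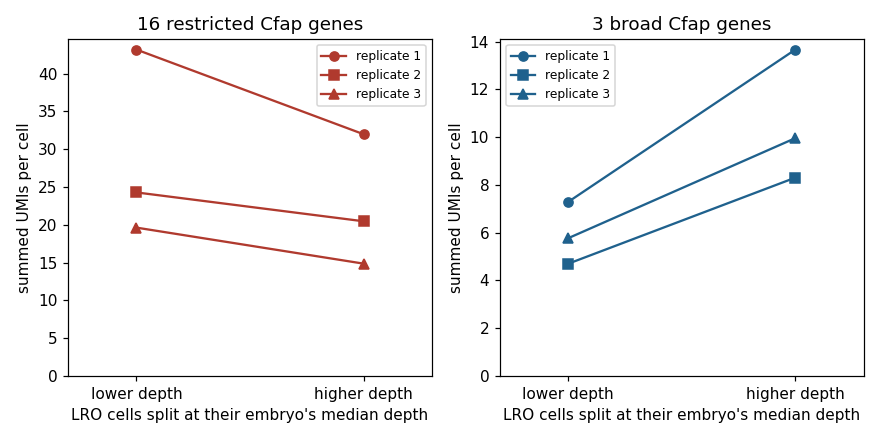
Summed UMIs per cell of the 16 restricted and 3 broad Cfap genes in LRO cells below and above their embryo's median depth, with a line for each embryo. The restricted genes fall from left to right in each embryo and the broad genes rise. In CPM, not drawn here, both groups were higher in the less deep cells.

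The same fits held a list of 46 other genes of motile cilia, of which 44 were in the files. All 44 were tested against all other cells: 43 were higher and 0 lower, where 11.5% and 6.68% of all genes were, with a median log2 fold change of 5.54, beside 6.36 for the 25 Cfap genes tested and -0.05 over all genes tested. The exception was Dnaaf2, a dynein assembly factor, at 0.39 (adjusted p = 0.208 by edgeR). Of the 44, 9 passed the filter on low counts only through LRO cells, as did 10 of the 25 Cfap genes. This selects for a difference, so the count and the medians are not support and do not rank the lists. Against axial-mesoderm-like cells 38 of 39 tested were higher and 0 lower (5.81% and 1.98% of genes). Dnaaf2 was again the exception, at 0.64 (adjusted p = 0.491 by edgeR). Of the 39, 37 passed the filter only through LRO cells, which selects for a difference, so this count is not support. Between LRO cells with and without Dand5 or Nodal 0 of 40 passed in either direction (0.125% and 0.0% of genes). Mns1, an axonemal protein, had 326 ± 82.8 CPM in LRO cells and 414 ± 55.5 in erythroid-like cells, and so was not restricted.

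A further 8 genes carry another symbol in the files but a Cfap symbol in RefSeq. Cfap298 (1110004E09Rik) had 196 ± 28.8 CPM in LRO cells and 88.8 ± 0.757 in erythroid-like cells, the next highest. Cfap299 (1700007G11Rik) had 34.9 ± 11.6 CPM with 53.0% ± 6.09 of its UMIs in LRO cells. Cfap410 (1810043G02Rik, 21.8 ± 4.0 CPM) and Cfap20dc (4930452B06Rik, 11.0 ± 1.92 CPM) had 73.0% and 90.9% of their LRO level in the next lineage. Cfap97d1 (1700006E09Rik) had 0 UMIs in LRO cells. Against all other cells 7 of the 8 were tested by edgeR, and 7 were higher and 0 lower (11.5% and 6.68% of genes). Of these 7, 1 passed the filter on low counts only through LRO cells. Against axial-mesoderm-like cells 4 of 6 tested were higher and 0 lower (5.81% and 1.98% of genes), and 4 of the 6 passed the filter only through LRO cells. This selects for a difference, so neither count is support.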

How the data were processed

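Droplet libraries (3′ chemistry, 1 per embryo) were aligned by the authors with Cell Ranger 3.1.0 to the mm10 genome plus an EGFP sequence. The deposited values are raw UMI counts per feature for each cell barcode, without normalization. The study's limits were applied (1500 genes to 8500, 7500 and 8500 genes in replicates 1 to 3, at most 10% mitochondrial UMIs). Barcodes under 0.5% mitochondrial UMIs (334, 160 and 79) were also removed, in place of low-mitochondrial clusters the study removed. Scrublet (scanpy 1.11.5) called 1 doublet per library, which does not work, so the top 6% of scores were an alternative and no doublet was removed.

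Cells took the lineage whose markers had the highest mean z-score (at most 5 per gene), if it was at least 0.75 and led by 0.4. These limits, and those of the 4 groups of genes, were set after values were seen. The members and lists were chosen with earlier results of these data known.

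UMIs were summed per embryo and class (at least 10 cells) and tested with edgeR 4.0.16 in R 4.3.3 (TMM, filterByExpr, glmQLFTest) with Benjamini-Hochberg adjustment over all genes tested, at 0.05. Tests were tried on simulated data. The classes of an embryo come from the same animal: their deviations correlated at 0.160 to 0.206 (LRO against other cells), 0.0621 to 0.161 (against axial-mesoderm-like cells) and 0.0913 to 0.361 (with against without Dand5 or Nodal). The embryo as a block, DESeq2 1.42.0 and its size factors, no filter, each embryo left out, other cell filters, thinning to 5000 UMIs and 3 or 5 LRO markers were alternatives, and compared cells with at most 1 LRO marker was added after seeing the data. Gene positions are from GENCODE release 21 for mouse.

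Values per embryo were given for the 10 genes highest in LRO cells and for any called lower or called by Dand5 or Nodal. They were also given for genes with a lineage at 25% or more of the LRO level, except the sparse Cfap99. Other genes named were chosen after their values were seen. Shares of cells cover counting error only.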

Additional observations from a re-analysis of the deposited data

How the results depend on the processing

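Against all other cells, the count of higher Cfap genes stayed within 1.5 times of 25 in every alternative run, and 0 were lower in each. The same held for the 15 and 0 against axial-mesoderm-like cells. With the embryo as a replicate block the counts over all genes rose, from 1054 to 2332 lower against all other cells and from 180 to 317 lower against axial-mesoderm-like cells, and the share of higher genes among those called went from 63.3% to 49.3% in the first. Without replicate 2 the lower genes fell to 189 against all other cells and 51 against axial-mesoderm-like cells, without replicate 1 to 116 against axial-mesoderm-like cells, and without replicate 3 to 316 against all other cells. Without the filter on low counts the median log2 fold change of all genes moved from -0.05 to -0.23. Against axial-mesoderm-like cells, Cfap45 missed the threshold with DESeq2 (adjusted p = 0.0972), Cfap70 without replicate 1 or 2 (0.0818 and 0.0568), and Cfap74 and Cfap43 without replicate 2 (0.131 and 0.0703, by edgeR). Among lineages outside the LRO, thinning to 5000 UMIs left 7 Cfap genes tested, of which 6 differed. Between LRO cells with and without Dand5 or Nodal, 1 Cfap gene was lower with the replicate block and 0 without it, and the block changed no other call on a Cfap gene in the 2 comparisons of LRO cells with other classes. The cause was not tested.

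In that last comparison, signs of genes that were never called changed. With at least 3 LRO markers the log2 fold changes were 0.13 (Cfap126), 0.0466 (Cfap77), 0.0268 (Cfap54), 0.11 (Cfap36), 0.0890 (Cfap52), 0.14 (Cfap44) and 0.00563 (Cfap53). With at least 5 they were -0.15 (Cfap206) and -0.0292 (Cfap69), and thinned, 0.0708 (Cfap44). Cfap206 had -0.0305 with DESeq2 and -0.0284 with the replicate block. With each embryo left out, the ranges were -0.37 to 0.0746 (Cfap126), -0.28 to 0.38 (Cfap206, -0.10 without replicate 3), -0.20 to 0.0559 (Cfap36), -0.65 to 0.34 (Cfap44), -0.49 to 0.16 (Cfap52), -0.52 to 0.28 (Cfap54), -0.10 to 0.41 (Cfap69, -0.04 without replicate 3) and -0.91 to 0.10 (Cfap70), each highest without replicate 2.

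The groups of genes depend on their limits. Cfap57 became broad with at least 3 LRO markers or without replicate 1 or 2, Cfap74 with at least 3 LRO markers or without replicate 2, and Cfap43 without replicate 1. Cfap100 and Cfap157 became sparse without any 1 embryo, and with thinning Cfap46, Cfap61 and Cfap70 did too. Depth limits the 4 sparse genes, with 12 to 32 UMIs in all.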
